A study of Mus musculus with 18 samples.

Results

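Bulge cells that had divided and bulge cells that had not, sorted from the same 3 mice at postnatal day (PD) 25, were compared on 6 of the 18 arrays of the series. The 3 arrays titled as bulge with 1 to 2 divisions were set against the 3 arrays titled as bulge with 0 divisions, and the arrays were paired by the mouse number in the title. All mice were double transgenic, from a K5tTA parent (FvB) and a pTRE-H2B-GFP parent (CD1), so the keratin 5 promoter drove a histone-GFP label in epithelial cells. Doxycycline food (1 g per kg) stopped the label from PD22 to PD25, and each later division diluted it 2-fold, so retained GFP counts the divisions of those days only. Surface CD34 and α6-integrin separated bulge from non-bulge cells, and 3 non-bulge arrays came from the same mice. The 9 PD21 arrays hold the same fractions from 3 other mice of this genotype, fed doxycycline from PD18 to PD21, and they enter only where the ages are compared.

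The bulge is the niche of the hair follicle stem cells, which rest for most of the hair cycle and are marked by CD34 and by the transcription factors Lhx2 and Sox9. At the start of a growth phase some of these cells divide, and their progeny either stay in the bulge or feed the growing follicle below it. Messenger RNAs for DNA replication and mitosis mark cells in cycle, while a diluted label marks cells that cycled earlier, so the measures need not coincide.

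The labels were first set against defining genes, in log2(signal + 16), the scale of all levels and changes given here. Cd34, the antigen of the sort, was 12.50, 12.24 and 12.42 in the undivided bulge of mice 1, 2 and 3, and 11.74, 11.56 and 12.87 in their divided bulge. It was 5.24, 5.55 and 4.12 in their non-bulge cells. Both bulge fractions thus carried Cd34 far above non-bulge cells, and the 2 bulge groups overlapped. Lhx2 lay between 11.73 and 11.87 in undivided bulge, between 11.74 and 12.42 in divided bulge and between 7.33 and 7.83 in non-bulge cells. Krt5 and Krt14, the keratins of basal keratinocytes, lay between 13.64 and 15.42 in all 9 arrays of PD25. All 18 arrays had a trimmed mean signal of 500, with median signals of 60.3 to 116.6. They fell into 2 sets by mean signal (9 arrays at 810.8 to 868.9, set A, and 9 at 666.7 to 730.6, set B), for which the labels give no reason. The 3 arrays of a mouse always lay in the same set, PD25 mouse 1 in set A and mice 2 and 3 in set B, so no pair crossed the sets. Same-mouse arrays of the 2 bulge fractions correlated at 0.913, 0.960 and 0.941 across genes. The ratio of Gapdh 3′ to 5′ probe sets, an RNA quality measure, was 9.46, 5.95 and 5.00 in undivided cells against 11.60, 5.06 and 3.10 in divided cells, and the divided array of mouse 1 was the highest of the 18. What these ratios add to the results was not tested.

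Few genes separated the fractions at PD25, and all were higher in divided bulge. Of 11569 genes tested with limma, with the mouse as a block, 10 were higher (0.0864%) and 0 were lower (0%) in divided bulge at an adjusted p under 0.05. The 10 were Itih5, Nptx1, Ntn4, Itpripl2, F2r, Fcgbp, Slc6a4, Prss23, Man2a2 and Lrp4, with changes of 1.22 to 2.36. At an unadjusted p under 0.05, 591 genes were higher (5.11%) and 429 were lower (3.71%). The divided array exceeded the undivided array of its mouse in all 3 mice for 1892 genes (16.4%) and fell below it in all 3 for 1513 (13.1%). Mouse 1 showed the widest spread of differences, with an SD across genes of 0.96, against 0.56 for mouse 2 and 0.71 for mouse 3. The calls rested on that mouse, on the pairing and on how the spread was estimated. Without mouse 1 or without the mouse block, 0 genes passed. With only the 6 arrays in the fit, which keeps mouse 1 and the block, 0 genes passed too. Without the mean-variance trend 1 gene passed, and 0 of the 10 did. Without mouse 2 there were 47 calls and without mouse 3 there were 26. Each of the 10 genes was still higher in divided bulge under all 15 alternative settings. Since all 3 mice had the divided value higher, leaving out mice, arrays or the block could not change that sign.

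**Figure D1:**
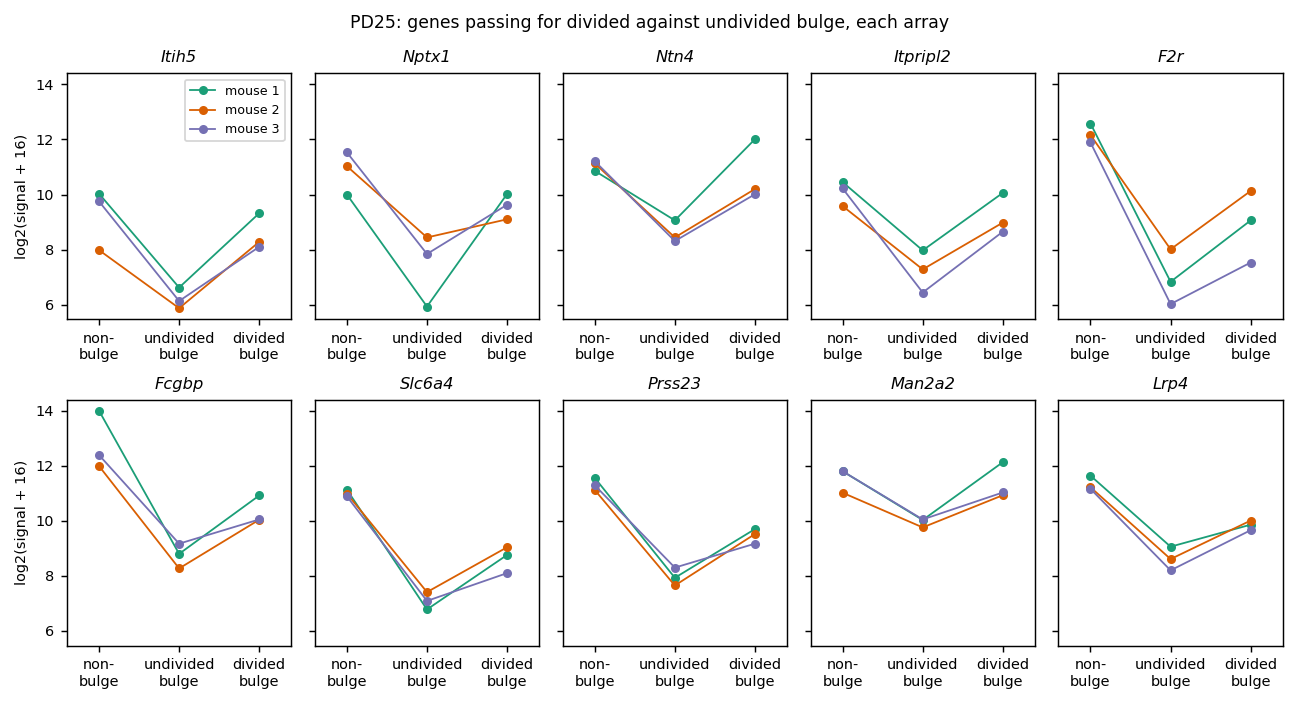
Log2(signal + 16) of the 10 genes that passed, in each of the 9 PD25 arrays. Points are arrays, lines join the fractions of a mouse, and in all 10 panels each mouse has its divided value above its undivided value.

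Several of the 10 encode secreted or matrix proteins. Ntn4 encodes netrin-4, a laminin-related protein of basement membranes. It was 9.06, 8.44 and 8.31 in undivided bulge of mice 1, 2 and 3, and 12.01, 10.20 and 10.01 in divided bulge. The groups did not overlap, and divided bulge was higher by 2.14 ± 0.33 (SE, n = 3 mice; limma, adjusted p = 0.0150), a 4.39-fold change on this scale. Non-bulge cells, at 10.86, 11.13 and 11.21, lay above both fractions in mice 2 and 3 and between them in mouse 1. Itih5, a heavy chain of the inter-alpha-trypsin inhibitors that bind hyaluronan in the matrix, was 6.62, 5.87 and 6.13 in the undivided fraction and 9.32, 8.28 and 8.10 in the divided one. It was higher by 2.36 ± 0.38 (n = 3; limma, adjusted p = 0.0150), and its undivided values in mice 2 and 3 lay below their arrays' medians of 6.92 and 6.51. Nptx1, a secreted pentraxin first known from neurons, was 5.93, 8.44 and 7.84 in undivided arrays, against 10.02, 9.10 and 9.63 in divided arrays. Its difference ranged over the mice from 0.65 to 4.10, and mouse 1 supplied the largest, with an undivided value below that array's median of 6.32. The mean was 2.18 ± 0.41 (n = 3; limma, adjusted p = 0.0371). Fcgbp, a mucin-like secreted protein that binds IgG, was 8.80, 8.27 and 9.17 in undivided cells against 10.92, 10.04 and 10.05 in divided cells. It was higher by 1.59 ± 0.26 (n = 3; limma, adjusted p = 0.0150), with no overlap.

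The other genes that passed encode surface proteins and enzymes. F2r encodes the thrombin receptor PAR1. It was 6.83, 8.01 and 6.02 in the undivided fraction and 9.06, 10.13 and 7.53 in the divided one, so the groups overlapped although each mouse had the divided value higher. The undivided value of mouse 3 lay below its array's median of 6.51. The paired change was 1.96 ± 0.34 (n = 3; limma, adjusted p = 0.0213). Lrp4, a relative of the LDL receptor that modulates Wnt signalling, was 9.06, 8.61 and 8.20 in undivided arrays, against 9.86, 10.01 and 9.66 in divided arrays. It was higher by 1.22 ± 0.22 (n = 3; limma, adjusted p = 0.0289). Slc6a4, the serotonin transporter, was 6.78, 7.41 and 7.09 in undivided cells against 8.76, 9.04 and 8.10 in divided cells. Its groups did not overlap, and the change was 1.54 ± 0.29 (n = 3; limma, adjusted p = 0.0371).

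Prss23 encodes a secreted serine protease. It was 7.93, 7.65 and 8.30 in the undivided fraction and 9.70, 9.52 and 9.17 in the divided one, higher by 1.51 ± 0.27 (n = 3; limma, adjusted p = 0.0281) with no overlap. Its 3 tested probe sets did not move together, with changes from -0.38 to 1.56. Man2a2, a Golgi mannosidase of N-glycan processing, was 10.03, 9.76 and 10.05 in undivided arrays, against 12.13, 10.93 and 11.03 in divided arrays. It was higher by 1.42 ± 0.23 (n = 3; limma, adjusted p = 0.0150). Itpripl2 was 7.97, 7.28 and 6.44 in undivided cells against 10.06, 8.98 and 8.65 in divided cells, higher by 2.00 ± 0.38 (n = 3; limma, adjusted p = 0.0371). Neither gene's groups overlapped, and Itpripl2 in undivided mouse 3 lay below the array's median.

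Below the threshold, the higher genes of lowest p whose groups did not overlap were Tmc7, Gstm1, Gstm2, Il1r2 and Slc2a9, with adjusted p of 0.0559 to 0.0627. Il1r2, the decoy receptor of interleukin 1, was 5.19, 6.64 and 6.48 in the undivided fraction and 9.75, 8.27 and 7.31 in the divided one, a difference of 2.34 ± 0.48. Its value differed most in mouse 1 and did not pass (limma, adjusted p = 0.0580, n = 3). Gstm1 and Gstm2 encode related glutathione S-transferases, so probe sets may not fully tell them apart, and they differed by 1.33 ± 0.27 and 1.91 ± 0.39. The other tested probe set of Tmc7 was at -0.02, against 1.92 for the one used.

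No gene passed as lower in divided bulge. The 15 lower genes of lowest p whose groups did not overlap had adjusted p from 0.0954 to 0.189. They included Crabp1, a cytoplasmic carrier of retinoic acid, with undivided values of 11.12, 10.81 and 10.06 and divided values of 8.08, 8.91 and 8.55. That difference was -2.15 ± 0.55 (limma, adjusted p = 0.132, n = 3), and non-bulge cells were at 4.28 to 4.56. Krt24, a keratin, was 11.84, 11.83 and 12.23 in undivided arrays, against 9.86, 10.27 and 11.02 in divided arrays, a difference of -1.58 ± 0.43 that did not pass. The cornified envelope genes Lce1a2 and Lce1c differed by -2.87 ± 0.73 and -1.95 ± 0.53, and as near-identical family members they are uncertain. Ccn1, a matricellular protein, differed by -1.50 ± 0.37, and Zdhhc2, a palmitoyltransferase, by -1.60 ± 0.37. Elovl4, an elongase of very long fatty acids, differed by -0.80 ± 0.23 and Wdr1, a factor in actin disassembly, by -0.72 ± 0.20. The other tested Wdr1 probe sets were at -0.21 and -0.06. Mis18a, which helps place the centromere histone, Tk1 and Mcm5 belong with the cell cycle genes below. The remaining genes of the 15 were 4930579G24Rik, Mfap3l, Agfg2 and Oxld1, at -1.89 to -0.89, and a second Agfg2 probe set was at 0.09.

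**Figure D2:**
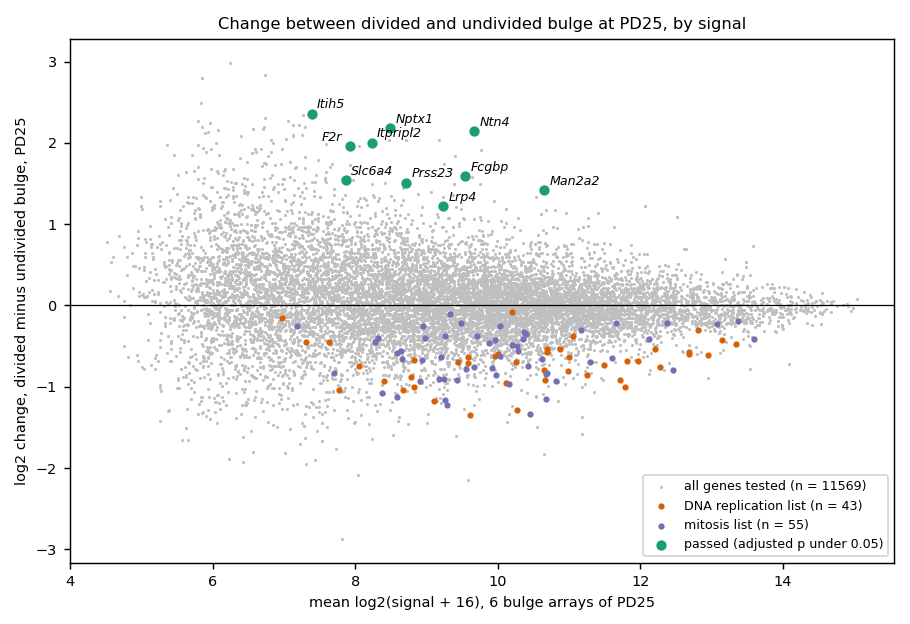
Log2 change of divided minus undivided bulge at PD25 (vertical axis) against mean log2(signal + 16) of the 6 arrays (horizontal axis), for 11569 genes. The 10 genes that passed are named, all 43 DNA replication and all 55 mitosis genes tested lie below 0, and none of those passed.

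Cell cycle genes lay below 0 as groups, with lower values in the cells that had divided, though none passed alone. All 43 DNA replication genes tested had a change below 0, as did all 55 mitosis genes, while 47.3% of all genes tested did. No gene of either list passed at an adjusted p under 0.05, and 29 replication and 23 mitosis genes were lower at an unadjusted p under 0.05, a share of 3.71% over all genes. The median change was -0.68 for replication and -0.62 for mitosis, against 0.02 for all genes. The lists' genes are not independent of each other, and the median was not alike in the mice. The replication median was -1.04 in mouse 1, -0.13 in mouse 2 and -0.91 in mouse 3. The mitosis median was -1.34, 0.21 and -0.75, so mouse 2 had the opposite sign. Divided bulge was lower in all 3 mice for 25 of 43 replication genes (58.1%) and 16 of 55 mitosis genes (29.1%), against 13.1% of all genes.

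**Figure D3:**
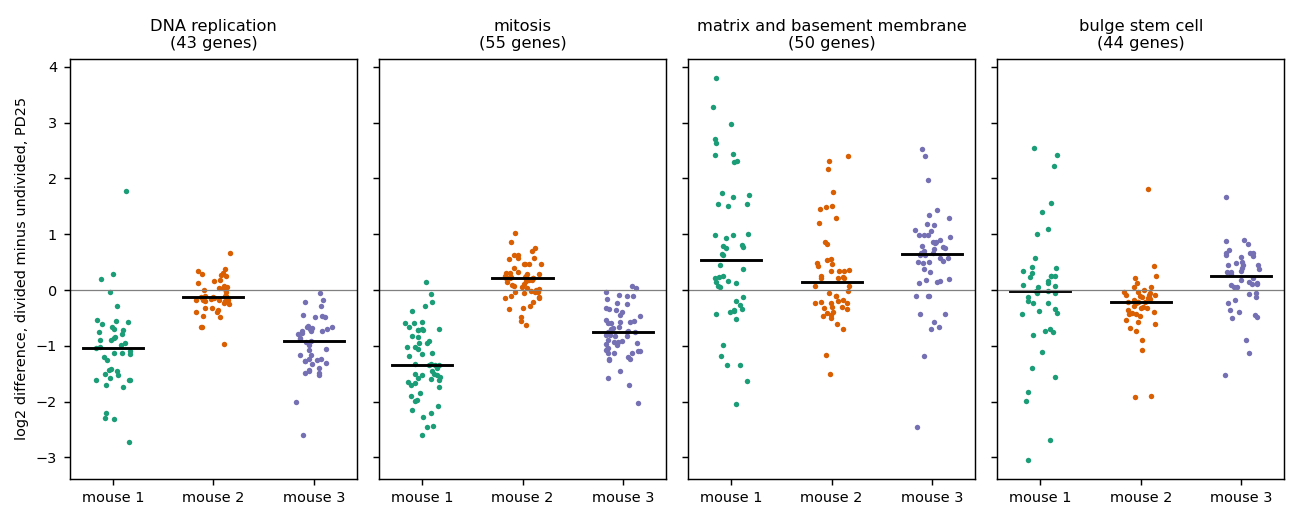
Log2 difference of divided minus undivided bulge at PD25 in each mouse, for the tested genes of 4 lists. Points are genes, bars are medians, and the mitosis median is -1.34 in mouse 1, 0.21 in mouse 2 and -0.75 in mouse 3.

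Among replication genes, Mcm3, a subunit of the replicative helicase, was 12.53, 12.19 and 11.82 in undivided cells against 11.11, 12.01 and 10.66 in divided cells. The difference of -0.92 ± 0.22 did not pass (limma, adjusted p = 0.115, n = 3), and the groups overlapped. Mcm5, of the same helicase, was 12.67, 12.09 and 12.12 in the undivided fraction and 11.23, 11.90 and 10.73 in the divided one, a difference of -1.0 ± 0.27 (adjusted p = 0.158). Mcm2 differed by -1.28 ± 0.34 and Rrm2, a subunit of ribonucleotide reductase, by -0.76 ± 0.20. Tk1, thymidine kinase, differed by -0.95 ± 0.27 without overlap of the groups. In each of the 5 genes mouse 2 showed the smallest difference.

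Among mitosis genes, Prc1, which bundles microtubules of the central spindle, was 10.76, 11.21 and 11.37 in undivided arrays, against 8.31, 10.88 and 10.17 in divided arrays. The difference was -1.33 ± 0.33 (limma, adjusted p = 0.115, n = 3). Spc25, a kinetochore subunit, differed by -1.15 ± 0.28, while its second probe set was at 0.02. Top2a, the topoisomerase that untangles chromosomes, was 11.74, 11.54 and 11.62 in undivided cells against 10.14, 11.75 and 10.93 in divided cells. Its difference was -0.69 ± 0.29 (adjusted p = 0.467), with the divided value higher in mouse 2. Mki67, the proliferation antigen, was 13.74, 13.12 and 12.70 in the undivided fraction and 12.82, 13.30 and 12.74 in the divided one, a difference of -0.23 ± 0.19 (adjusted p = 0.810). The cyclins Ccna2 and Ccnb2 differed by -0.65 ± 0.29 and -0.77 ± 0.33. Mis18a, which is in neither list and is named for its low p, differed by -1.09 ± 0.26, lower in all 3 mice. Non-bulge cells had Top2a at 10.90, 10.63 and 11.02, below the undivided bulge of each mouse, a difference of 0.78 that did not pass (adjusted p = 0.0762).

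The promoters of a few of these genes are shown because both lists lay to 1 side of 0 and are known to share promoter elements, E2F sites in replication genes and the cell cycle homology region (CHR) in mitosis genes. Each window runs from 250 bases before to 50 after the annotated start in the RefSeq table of GRCm38.p6, and is written 5′ to 3′ on the strand of the gene. Exact matches on either strand to TTTCCCGC, TTTGGCGC or TTTCGCGC (E2F-like) are in capitals in the first 2 sequences, and to TTTGAA or TTCGAA (CHR-like) in the last 2. The Mcm3 window is chr1:20820263-20820562 (minus strand), the Mcm5 window chr8:75109259-75109558 (plus), the Ccnb2 window chr9:70421505-70421804 (minus) and the Top2a window chr11:99024140-99024439 (minus).
Mcm3: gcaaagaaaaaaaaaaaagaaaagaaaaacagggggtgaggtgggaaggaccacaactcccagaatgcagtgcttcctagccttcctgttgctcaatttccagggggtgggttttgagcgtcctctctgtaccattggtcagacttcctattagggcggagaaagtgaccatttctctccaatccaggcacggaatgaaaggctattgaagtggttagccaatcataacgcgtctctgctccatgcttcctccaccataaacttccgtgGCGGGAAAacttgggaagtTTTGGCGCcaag
Mcm5: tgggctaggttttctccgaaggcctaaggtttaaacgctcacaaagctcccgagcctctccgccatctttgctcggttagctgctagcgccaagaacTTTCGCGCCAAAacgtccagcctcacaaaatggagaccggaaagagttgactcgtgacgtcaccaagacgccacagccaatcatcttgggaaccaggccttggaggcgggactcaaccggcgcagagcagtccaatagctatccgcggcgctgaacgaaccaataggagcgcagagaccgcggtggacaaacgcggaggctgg
Ccnb2: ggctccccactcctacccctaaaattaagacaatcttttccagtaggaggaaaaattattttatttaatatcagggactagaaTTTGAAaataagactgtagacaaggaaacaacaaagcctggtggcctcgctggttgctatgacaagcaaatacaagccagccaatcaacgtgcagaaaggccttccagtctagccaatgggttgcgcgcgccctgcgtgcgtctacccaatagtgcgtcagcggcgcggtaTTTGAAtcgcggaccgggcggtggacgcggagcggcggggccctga
Top2a: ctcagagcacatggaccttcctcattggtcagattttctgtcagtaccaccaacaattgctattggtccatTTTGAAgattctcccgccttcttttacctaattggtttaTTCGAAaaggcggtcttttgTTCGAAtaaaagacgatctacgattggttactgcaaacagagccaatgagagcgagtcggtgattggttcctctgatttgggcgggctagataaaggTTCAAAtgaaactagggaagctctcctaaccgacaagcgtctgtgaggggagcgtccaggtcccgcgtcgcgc
Only windows with a match were shown, so that each of the 4 holds matches is no result. There are 2 in Mcm3, 2 overlapping ones in Mcm5, 2 in Ccnb2 and 4 in Top2a. Over the lists, 33 replication and 46 mitosis genes tested had a window. An E2F-like match stood in 14 replication genes (42.4%) and 3 mitosis genes (6.52%), against 2.12% of the 27025 genes of the table and 4.18% of the 9377 tested genes with a window. A CHR-like match stood in 7 replication genes (21.2%) and 34 mitosis genes (73.9%), against 21.7% and 16.1%. CCAAT stood in 60.6% and 71.7% of the lists, against 41.1% and 43.1%. These are letter matches, and no binding was measured.

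No regulator of cell cycle entry passed. Of 21 tested G1 cyclins, kinases and E2Fs, 0 passed and 16 lay below 0 (76.2%, against 47.3% of all genes), with a median of -0.25. E2f1, which drives S phase genes, differed by -0.99 ± 0.34, with another of its probe sets at 0.08. Ccne1, the G1/S cyclin, differed by -1.12 ± 0.39 and Ccnd3, a D cyclin, by -0.89 ± 0.32. Ccnd1 and Ccnd2 were at 0.16 ± 0.18 and -0.10 ± 0.13, with 95% intervals of -0.21 to 0.54 and -0.37 to 0.16. Of 15 cell cycle inhibitors and pocket proteins 0 passed, with a median of -0.32. Cdkn1a (p21) was at 0.20 ± 0.24 and Cdkn1b (p27) at 0.04 ± 0.26, with intervals of -0.31 to 0.71 and -0.50 to 0.59. Wee1, the kinase that holds cells before mitosis, was 11.27, 11.22 and 10.36 in undivided arrays, against 9.64, 10.99 and 9.72 in divided arrays, a difference of -0.84 ± 0.22 that did not pass.

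Genes that define the bulge went both ways between the fractions, and none passed. Of 44 bulge stem cell genes tested, 22 lay above 0 (51.6% of all genes did) and 22 below, and the median was -0.02. Lhx2 differed by 0.32 ± 0.25 (95% interval -0.20 to 0.84) and Sox9 by 0.02 ± 0.22 (-0.43 to 0.47), with its second probe set at -0.28. Runx1, which acts in the start of follicle growth, was at 0.05 ± 0.22 (-0.40 to 0.51), with its 6 probe sets between -0.34 and 1.36. Cd34 was at -0.33 ± 0.42 (-1.20 to 0.53), Krt15 at 0.08 ± 0.13 (-0.18 to 0.34) and Itga6 at 0.11 ± 0.15 (-0.19 to 0.42). Nfatc1, a factor of stem cell rest, was at 0.35 ± 0.25 (-0.17 to 0.88) and Tcf7l1 at -0.23 ± 0.51 (-1.28 to 0.83). For the probe set used, the intervals of Lhx2, Sox9, Runx1, Nfatc1, Krt15 and Itga6 exclude a 2-fold difference, a log2 change of 1, in either direction. Those of Cd34 and Tcf7l1 do not. Dimmer probe sets were at up to 0.99 ± 0.62 for Nfatc1 and 1.36 ± 0.72 for Runx1, and these do not exclude it.

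Within the same list of 44 genes, 5 had intervals that left out 0, 2 above and 3 below, and none of them passed. At the same limit, an unadjusted limma p under 0.05, 5.11% of all genes tested were higher and 3.71% were lower. Lgr5 and Nfatc2 lay above 0 and Crabp1, Igfbp5 and Id2 below, and the 5 differed in the same direction in all 3 mice. Lgr5, the R-spondin receptor of lower bulge and germ cells, was 7.13, 7.46 and 8.13 in undivided cells against 8.69, 9.26 and 8.85 in divided cells, a difference of 1.36 ± 0.51 (limma, adjusted p = 0.382, n = 3). Igfbp5, an IGF binding protein, was 11.56, 11.55 and 11.60 in the undivided fraction and 8.87, 9.64 and 10.71 in the divided one, a difference of -1.83 ± 0.55 (adjusted p = 0.217). Id2, a target of BMP signalling, differed by -0.83 ± 0.31, and Crabp1, described above, by -2.15 ± 0.55. Nfatc2, named after its values were seen, differed by 1.34 ± 0.62 between low signals, 4.40 to 6.02 in undivided and 6.06 to 6.78 in divided arrays. In all 5 genes the groups did not overlap, which held for 6.19% (higher) and 3.74% (lower) of all genes. The 5 were picked by their intervals on these same arrays, so neither the shared signs nor the separation adds support.

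The division effect differed between the ages for many genes. The difference of the effects, PD25 minus PD21, passed for 313 genes as higher (2.71%) and 193 as lower (1.67%), 506 in all (4.37%). It passed for 137 without the mouse block, for 192 without PD25 mouse 3, for 199 within array set A and for 5 within set B. The PD21 pairs are 3 other mice, 2 in set A and 1 in set B, the reverse of PD25, and age, mice and days of doxycycline cannot be told apart. At PD21 the divided fraction differed from the undivided in 1533 genes (13.3%), 757 higher (6.54%) and 776 lower (6.71%). Of 44 bulge stem cell genes, 27 had a higher effect at PD25 and 0 a lower one, with medians of -0.02 at PD25 and -1.86 at PD21. Lhx2 changed by 0.32 at PD25 and -2.16 at PD21, a difference of 2.47 ± 0.35 (limma, adjusted p = 0.000634, n = 3 mice per age). For Sox9 the difference was 2.19 ± 0.31, for Runx1 1.92 ± 0.31 and for Cd34 3.47 ± 0.59, and all passed. The label check above covers PD25 only. At PD21 Cd34, the antigen of the sort, was 13.12, 12.40 and 12.67 in undivided bulge. It was 9.19, 7.91 and 9.68 in divided bulge and 4.10, 4.10 and 5.36 in non-bulge cells. Lhx2 was 9.84, 9.21 and 9.87 in divided bulge of PD21, also between the other fractions. What the make-up of the PD21 divided sort adds to the differences between the ages was not tested. For Lgr5 the effect was 1.36 at PD25 and -2.44 at PD21, with opposite signs and a difference of 3.80 ± 0.72 (adjusted p = 0.00440). Igfbp5 and Crabp1 lay below 0 at both ages, at -1.83 and -2.15 against -5.32 and -5.00, and their differences of 3.49 ± 0.78 and 2.84 ± 0.77 passed.

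Cell cycle genes went the other way between the ages. The difference passed as lower at PD25 for 10 of 43 replication and 18 of 55 mitosis genes, against 1.67% of all genes. It passed as higher for 0 of either, against 2.71% of all genes, and the median differences were -1.02 and -1.50. Prc1 changed by -1.33 at PD25 and 1.32 at PD21, a difference of -2.65 ± 0.46 (limma, adjusted p = 0.00216, n = 3 mice per age). Spc25 gave -2.23 ± 0.40, Ccnb2 -2.13 ± 0.47, Ccna2 -1.79 ± 0.41 and Mki67 -1.08 ± 0.26, and all passed. Top2a, at -0.69 and 0.71, gave -1.41 ± 0.41, which missed the threshold (adjusted p = 0.0504). Of replication genes, Mcm2 gave -1.93 ± 0.48, Mcm5 -1.58 ± 0.38, Mcm3 -1.29 ± 0.32 and Rrm2 -1.05 ± 0.28, and all passed, while Tk1 gave -0.43 ± 0.38. Wee1 gave -1.60 ± 0.32 and Ccnd2 -0.87 ± 0.18, both passing. The mouse 2 pair of PD25, whose mitosis median was 0.21, is among the mice behind these values.

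**Figure D4:**
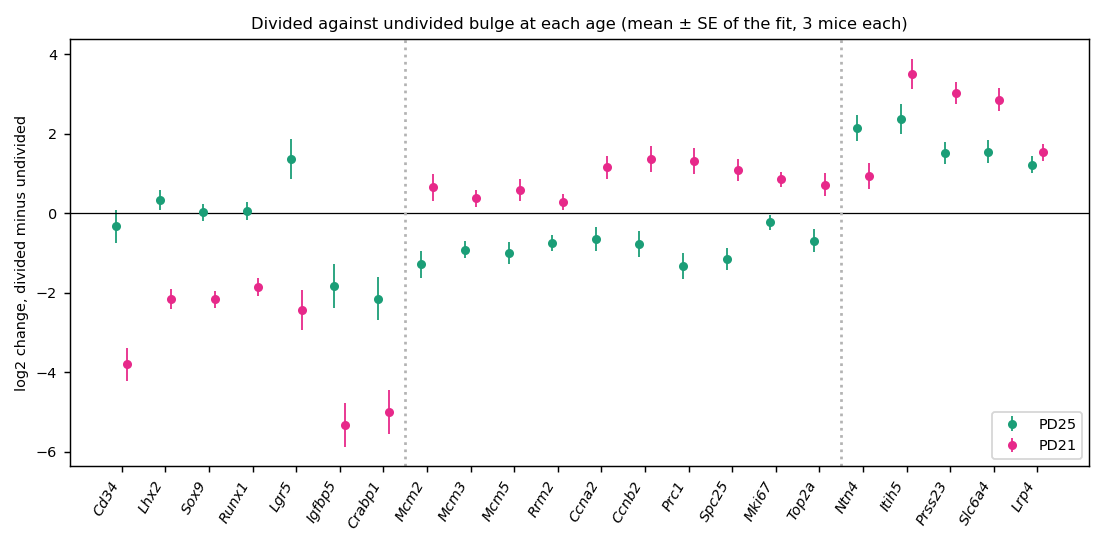
Log2 change of divided minus undivided bulge at PD25 and PD21 (points) with the SE of the fit (bars), 3 mice per age, for bulge genes (left), cell cycle genes (middle) and 5 of the 10 genes (right). Lhx2 is at 0.32 and -2.16, Prc1 at -1.33 and 1.32, and Ntn4 at 2.14 and 0.93.

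The 10 genes were higher in divided bulge at both ages. Of the 10, 9 passed at PD21 as well, where 6.54% of genes were higher, with changes of 0.93 to 3.50. Ntn4 was the exception, at 0.93 (adjusted p = 0.0663), and the 1.20 ± 0.47 by which the ages differed did not pass (adjusted p = 0.160). Prss23 was the 1 gene of the 10 whose effect differed, at 1.51 and 3.02, a difference of -1.51 ± 0.38 (limma, adjusted p = 0.0256, n = 3 mice per age). Its divided values at PD21 were 11.59, 11.49 and 11.51, near the non-bulge values of 11.40, 11.82 and 11.66. For Ntn4 they were 11.39, 10.92 and 11.27, against 10.74, 11.35 and 11.26. Set against PD21 non-bulge cells, undivided bulge passed as lower for 9 of the 10 genes. The 10 changes were -3.72 to -0.86. Whether the PD21 calls repeat the effect of division seen at PD25 was not tested.

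By their means, the 10 genes in divided bulge also stood between undivided bulge and non-bulge cells at PD25. In single mice the divided value exceeded the non-bulge value in 4 of 30 cases, Ntn4, Man2a2 and Nptx1 in mouse 1 and Itih5 in mouse 2. All 10 were lower in undivided bulge than in the non-bulge fraction (6.66% of genes were), with changes of -5.26 to -1.59, and 6 were lower in divided bulge than in non-bulge cells (4.76%). These comparisons share arrays with the division effect, so a set was taken from the PD21 mice instead, after the values were seen. Of 11569 genes, 883 were higher in non-bulge cells than in undivided bulge at PD21 (7.63%) and 1043 were lower (9.02%). In the PD25 mice, the 883 had a median division effect of 0.27, and 323 were higher in divided bulge in all 3 mice (36.6%), against 16.4% of all genes. The 1043 had a median of -0.05, and 206 were lower in all 3 mice (19.8%), against 13.1%. Of the 10 genes, 9 were among the 883. The median of the 883 was 0.32, 0.35 and 0.14 in mice 1, 2 and 3, and that of the 1043 was -0.05, -0.21 and 0.09, so mouse 3 had the opposite sign. Cd34, the antigen of the sort, and Lhx2 lay in divided bulge at most 0.76 from their undivided values in each mouse. Crabp1 differed by -3.04, -1.90 and -1.52 in mice 1, 2 and 3, Igfbp5 by -2.69, -1.92 and -0.89, and Id2 by -1.39, -0.74 and -0.35. These bulge genes are examples picked with their values known, and they do not measure the part of non-bulge cells in the divided sort. That part was not tested.

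Markers of neighbouring epidermal cells were read next. In an RNA pool of many cells, fewer cells of a type and less RNA per cell cannot be told apart. Of 18 basal interfollicular epidermis genes, 0 passed and 14 lay above 0, while 51.6% of all genes did, and the median was 0.44. Their summed signal was 47200 to 81000 in undivided, 52300 to 109000 in divided and 80800 to 149000 in non-bulge arrays. Ly6d, a surface protein of the upper follicle and epidermis, was 8.95, 9.23 and 9.86 in undivided arrays, against 10.31, 10.56 and 10.28 in divided arrays, a difference of 1.04 ± 0.23 (limma, adjusted p = 0.0731, n = 3). Krt1, a keratin of differentiating epidermis, was 12.12, 12.08 and 11.69 in undivided cells against 13.69, 12.78 and 12.69 in divided cells, a difference of 1.09 ± 0.23 (adjusted p = 0.0677). Of 11 isthmus and infundibulum genes 0 passed, 7 lay above 0 and 4 below (36.4%, against 47.3% of all genes), with a median of 0.60. Their sums were 32000 to 42400 in undivided, 34200 to 49200 in divided and 27300 to 35100 in non-bulge arrays. Plet1, an upper follicle surface marker, differed by 1.11 ± 0.27 and Lrig1, a stem cell marker of the junctional zone, by 0.63 ± 0.18, with its 3 probe sets between -0.21 and 0.81. Of 26 epidermal differentiation genes 0 passed, with sums of 87800 to 120000 and 84300 to 169000. Their median of 0.14 rested on mouse 1, at 0.64 against -0.01 and -0.14 in mice 2 and 3. Of 13 sebaceous gland genes 0 passed and 10 lay below 0 (76.9%, against 47.3% of all genes), with a median of -0.41. Their sums were 42300 to 53300 in undivided and 30800 to 47500 in divided arrays. The part of these markers in the results was not tested.

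Markers of cells outside the epithelium gave no call. The summed signal of melanocyte genes was 1180 to 1360 in undivided and 1320 to 2090 in divided bulge, of immune genes 1800 to 3120 and 2630 to 3060, and of muscle genes 181 to 401 and 247 to 764. For Merkel cell and nerve genes the sums were 552 to 998 and 428 to 783, and for erythroid genes 102 to 188 and 118 to 197. Endothelial and mural genes summed to 5960 to 6470 and 7530 to 8680, largely Cspg4, which the bulge list also holds, at 12.36 to 12.97 in the 6 arrays. Dermal fibroblast and papilla genes summed to 17000 to 30000 and 15700 to 30300, and Col1a2, a fibroblast collagen, was 5.58, 6.49 and 7.68 in the undivided fraction and 8.02, 7.99 and 9.11 in the divided one. No gene of these lists passed, and their medians were 0.04 (4 melanocyte genes), -0.10 (13 immune), 0.23 (2 muscle), -0.56 (3 Merkel and nerve), 0.01 (1 erythroid gene), 0.36 (5 endothelial) and -0.05 (10 fibroblast). Their part in the results was not tested.

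**Figure D5:**
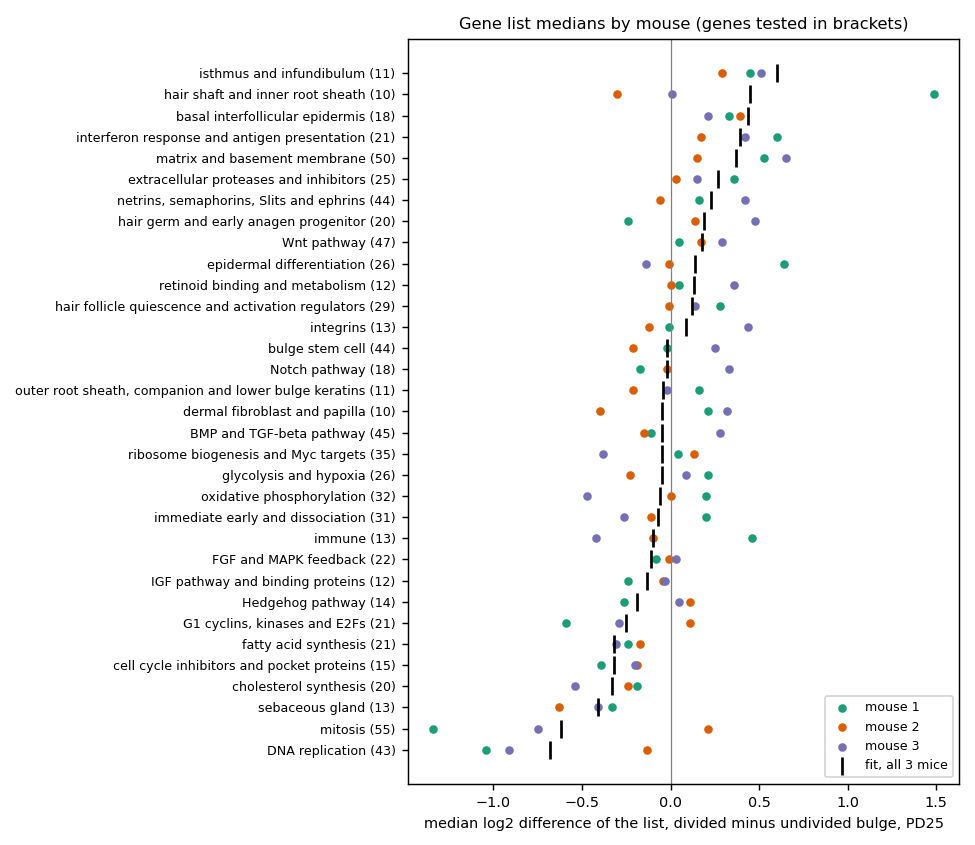
Median log2 difference of divided minus undivided bulge at PD25 for each list with 10 or more tested genes, by mouse (points) and in the fit (vertical bars). DNA replication lies lowest at -0.68 and isthmus and infundibulum highest at 0.60, and the mice disagree in sign for mitosis.

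Signalling and matrix lists each held at most 1 of the 10 genes. In the matrix and basement membrane list, 1 of 50 genes passed (Itih5), 39 lay above 0 and 18 were higher in all 3 mice (36.0%), with a median of 0.37. Over all genes 51.6% lay above 0 and 16.4% were higher in all 3 mice. The basement membrane collagens Col4a1 and Col4a2 differed by 1.18 ± 0.33 and 1.21 ± 0.31, and Col4a2 was 8.53, 8.92 and 8.97 in undivided arrays, against 10.83, 9.47 and 9.76 in divided arrays. Neither passed (limma, adjusted p = 0.176 and 0.132, n = 3), and the groups of Col4a2 did not overlap. In the netrin, semaphorin, Slit and ephrin list, 1 of 44 genes passed (Ntn4), with a median of 0.23. Robo1, a Slit receptor, differed by 1.37 ± 0.39 and Sema4c, a membrane semaphorin, by 1.19 ± 0.34. In the list of extracellular proteases and inhibitors, 1 of 25 passed (Prss23), with a median of 0.27. Mmp14, a membrane protease, differed by 1.07 ± 0.34 but by -0.04 in mouse 2, and its other probe sets were at 0.20 and 0.64. Of 13 integrins 0 passed, with a median of 0.09.

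In the Wnt list, 1 of 47 genes passed (Lrp4), 28 lay above 0, a share near the 51.6% of all genes, and 18 were higher in all 3 mice (38.3%, against 16.4%), with a median of 0.18. Axin2, a feedback target of Wnt signalling, was 9.12, 9.29 and 9.19 in undivided cells against 10.05, 9.90 and 10.92 in divided cells. It differed by 1.09 ± 0.23 without overlap and missed the threshold (limma, adjusted p = 0.0687, n = 3). Tle3, a corepressor, differed by 0.73 ± 0.22, with its 4 probe sets between -0.58 and 0.94, and Apcdd1, a Wnt inhibitor, by 0.59 ± 0.20. Of 45 BMP and TGF-beta genes 0 passed, with a median of -0.05. The receptor Tgfbr2 differed by 1.09 ± 0.28, while its other tested probe set was at 0.05. Inhbb, an activin subunit, differed by 1.07 ± 0.34, and its effect differed from that at PD21 by 2.43 ± 0.48 and passed. Of 29 regulators of follicle rest and activation 1 passed (Slc6a4), with a median of 0.12. In that list Foxo4, a forkhead factor, differed by 0.96 ± 0.26.

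No gene passed in the remaining pathway lists. The medians were -0.11 for FGF and MAPK feedback (22 genes), -0.19 for Hedgehog (14), -0.02 for Notch (18), -0.13 for IGF (12) and 0.13 for retinoid genes (12). Hair germ genes (20) had a median of 0.19, and outer root sheath and companion keratins (11) one of -0.04. Hair shaft and inner root sheath genes (10) had a median of 0.45 that rested on mouse 1, whose own median was 1.49 against -0.30 and 0.01. Tchh, trichohyalin of the inner root sheath, was 10.18 in the divided array of mouse 1 and 5.87 and 7.59 in those of mice 2 and 3.

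Metabolic lists held 0 genes that passed, and lipid synthesis lay below 0 in each mouse. Of 20 cholesterol synthesis genes 17 lay below 0 and 9 were lower in all 3 mice, with a median of -0.33 (-0.19, -0.24 and -0.54 by mouse). Over all genes 47.3% lay below 0 and 13.1% were lower in all 3 mice. Idi1, an isomerase of the pathway, was 12.81, 12.22 and 12.18 in the undivided fraction and 11.93, 11.93 and 11.48 in the divided one, a difference of -0.62 ± 0.20 (limma, adjusted p = 0.271, n = 3). Fatty acid synthesis (21 genes) had a median of -0.32, and Scd1, a desaturase, differed by -0.41 ± 0.14. Its effect differed from that at PD21 by -1.30 ± 0.20 and passed. The medians of glycolysis and hypoxia (26 genes), ribosome biogenesis (35) and oxidative phosphorylation (32) were -0.05, -0.05 and -0.06. Slc2a1, the glucose transporter GLUT1, was 12.34, 12.31 and 12.15 in undivided arrays, against 13.04, 12.58 and 12.71 in divided arrays, a difference of 0.51 ± 0.14 that did not pass. Immediate early genes (31), which cell dissociation can induce, had a median of -0.07.

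Of 21 interferon response and antigen presentation genes 0 passed and 18 lay above 0, while 51.6% of all genes did. The list's median was 0.39, with medians of 0.60, 0.17 and 0.42 by mouse. H2-K1, a class I histocompatibility chain, was 13.56, 13.06 and 13.04 in undivided cells against 14.87, 13.34 and 13.62 in divided cells. The difference was 0.73 ± 0.17 (limma, adjusted p = 0.111, n = 3), and class I genes are near-identical, so it is uncertain which of them was measured. The list's median at PD21 was 1.20, and 10 of its genes passed as higher there, as 6.54% of all genes did.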

How the data were processed

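RNA (5 ng per fraction) was amplified with Ovation chemistry and hybridised to Affymetrix mouse arrays, per the labels' protocols. The authors deposited intensity signals per probe set, made with GCOS per the submitters' processing notes, version not given in the sources. The trimmed mean of 500 on every array shows that they were scaled, so no further normalisation was applied. Present calls were not used here.

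Of 45101 probe sets, 34945 had 1 gene symbol, 932 had several, 9160 had none and 64 were controls. RefSeq matched 34741 of the first. A probe set had to exceed its array's median in 3 of 18 arrays, and the one of highest mean represented its gene (11569 genes). limma 3.58.1 in R 4.3.3 (lmFit, eBayes with trend) was fitted to log2(signal + 16) of all 18 arrays, with fraction within age and the mouse as a block (8 residual degrees of freedom), and checked on simulated data. Dim genes are noisy, and the added 16 understates their changes. P-values were adjusted by Benjamini-Hochberg over these 11569 genes, SE are of the fit, and a gene passed at 0.05. No set test was run. Mouse numbers come from the titles and mark the same animal across fractions. Deviations from the group means of same-mouse bulge arrays correlated at 0.20, 0.22 and 0.17. The number of arrays limits the precision.

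Text names genes that passed, the lowest-p genes that fill 15 per direction without overlap, fixed markers and up to 4 genes of lowest p in each of 38 lists. The members, lists and rules were chosen with earlier results of these data known. Alternatives changed the block, arrays, pseudocount, filter, normalisation, variance trend, array weights, probe set choice, mice and array set.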

Additional observations from a re-analysis of the deposited data

Results flagged for a closer look

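These results are listed because the change of divided against undivided bulge differed between PD25 and PD21 (limma, adjusted p under 0.05 for the difference, 3 mice per age). Values are log2 differences, PD25 minus PD21, and positive values mean a higher change at PD25.

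Bulge genes with positive values were Lgr5 at 3.80, Igfbp5 at 3.49, Cd34 at 3.47, Cspg4 at 2.98, Crabp1 at 2.84, Lhx2 at 2.47, Sox9 at 2.19 and Runx1 at 1.92. The activin subunit gene Inhbb stood at 2.43 and Foxo4 at 1.35.

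Cell cycle genes with negative values were Prc1 at -2.65, Spc25 at -2.23, Ccnb2 at -2.13, Mcm2 at -1.93, Ccna2 at -1.79, Mis18a at -1.60, Wee1 at -1.60, Mcm5 at -1.58, Mcm3 at -1.29, Mki67 at -1.08, Rrm2 at -1.05 and Ccnd2 at -0.87. Lipid genes were Elovl4 at -1.49 and Scd1 at -1.30. Others were Lce1a2 at -4.01, Oxld1 at -3.28, Lce1c at -2.76, Prss23 at -1.51 and Apcdd1 at -0.98.

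At PD21 the changes of Prss23 and Apcdd1 were 3.02 and 1.57, of the same sign as at PD25, while those of Lce1a2, Lce1c and Oxld1 were 1.14, 0.81 and 1.39, of the opposite sign.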

How the results depend on the processing

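For divided against undivided bulge at PD25 (10 genes), the count was 0 with no replicate block (635 genes at an unadjusted p under 0.05, lowest adjusted p 0.0518) and 0 with only the 6 bulge arrays of PD25 (977). It was 18 with a pseudocount of 64, 17 with no filter, 1 with no mean-variance trend, 35 with array weights and 4 with the probe set of highest variance. Leaving out a mouse gave 0 to 47, and 19 of those 47 (without mouse 2) were lower. Within array set A, which is the single pair of mouse 1 assumed to vary like the others, it was 96, and within set B 0 (588 unadjusted). A pseudocount of 1, a stricter filter and quantile normalisation gave 14, 10 and 8. For the difference between the ages (506), no replicate block gave 137, no trend 178, leaving out a PD25 mouse 192 to 655, set A 199 and set B 5. For PD21 (1533), no replicate block gave 958 and set B 230. For undivided bulge against non-bulge at PD25 (1700), leaving out a mouse gave 1049 to 1394, set A 796 and set B 1118. For divided bulge against non-bulge (1428), the values were 936 to 1167, and 578 in set A. The replication median ran from -1.04 to -0.47 and the mitosis median from -1.34 to -0.25 over all settings. The FGF and MAPK median became 0.01 without the filter, 0.01 in set B and -0.18 to 0.01 without a mouse, and the IGF median became 0.09 with the probe set of highest variance and -0.21 to 0.07 without a mouse. Over the main setting and the alternatives, 16 of 33 list medians took both signs. Among them were hair shaft (-0.50 to 1.49), hair germ (-0.24 to 0.31), Notch (-0.17 to 0.19), bulge stem cell (-0.13 to 0.07), epidermal differentiation (-0.12 to 0.64), oxidative phosphorylation (-0.23 to 0.20), integrin (-0.19 to 0.22) and immune genes (-0.25 to 0.46). The cause of these shifts was not tested. In simulated data of this design, 27 of 100 genes with a log2 change of 1 and 67 of 100 with a change of 2 were called, with 4 false calls.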
